A study of Homo sapiens with 12 samples.

Results

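The HOX genes encode homeodomain transcription factors that lie in 4 clusters and give cells their position along the body axis. All 39 symbols of the HOXA, HOXB, HOXC and HOXD clusters were taken from a table of 59427 gene symbols by their names, with no threshold on their levels. The table holds mean TPM (a level per transcript length, scaled to a total of 1000000) in 4 human breast epithelial lines of the MCF10 series. In the order of progression given by the study these are MCF10A, a non-tumorigenic immortalised line, MCF10AT1, the HRAS-transformed line, MCF10DCIS, which models carcinoma in situ of the ducts, and metastatic MCF10CA1a. The study gives the allele G12V for its transformed stage without a line name, and MCF10AT1 is the line left once the other 3 stages are matched to theirs. MCF10DCIS and MCF10CA1a are known to have been derived through xenografts of the HRAS-transformed cells and not from each other, and their HRAS allele is not given in the labels. Each stage is 1 line. The culture medium of all 4 contained EGF, insulin, hydrocortisone, cholera toxin and horse serum. The labels state 3 RNA libraries per line, 12 in all.

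Members of a cluster are numbered by paralog group, and the numbers follow their order on the chromosome. Low numbers act in anterior parts of the embryo and high numbers in posterior parts, and Polycomb proteins keep unused clusters silent while trithorax proteins keep used ones active. HOX proteins bind DNA with partners of the TALE class, such as PBX and MEIS proteins. In the mouse, Hoxc8 takes part in the placement of the mammary placodes, and loss of Hoxa9, Hoxb9 and Hoxd9 together impairs growth of the mammary gland in pregnancy.

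Each value is the authors' mean over the libraries of a line. It has no SD, so whether a difference exceeds the spread of replicates is not known and no p-value is given. The depth of the libraries is unknown. A difference is the log2(TPM + 1) value of a line less that of the line it is set against, a scale that understates the differences of low genes such as these. Higher and lower mean a difference of at least 1 in size, called the rule of size, and all 13108 genes at 1 TPM or more in at least 1 line were treated in the same way. HRAS, which bears on the line labels, was 50.8 TPM in MCF10A, 126 TPM in MCF10AT1, 276 TPM in MCF10DCIS and 312 TPM in MCF10CA1a. Of 11 epithelial markers all 11 reached 1 TPM, with a summed level of 2394 to 3896 TPM per line. Markers of fibroblasts reached 1 TPM in 2 of 10 cases, of leukocytes in 3 of 7 and of endothelium in 1 of 6, with summed levels of 1.01 to 6.85, 6.72 to 20.1 and 0.949 to 4.76 TPM. No marker of these 3 lists was at 0 in all lines.

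The HOX genes were expressed at low levels, and the clusters differed widely. At least 1 TPM was reached by 13 of 39 members in MCF10A, 13 members in MCF10AT1, 14 members in MCF10DCIS and 13 members in MCF10CA1a. Over all symbols of the table, non-coding ones included, the share at 1 TPM was 20.3%, 20%, 19.3% and 20.2% in the same order of lines. In all, 18 members reached 1 TPM in at least 1 line and 9 did so in every line, namely HOXA3, HOXA4, HOXA5, HOXA7, HOXA9, HOXA10, HOXB2, HOXC9 and HOXC13. The 18 were 10 of 11 HOXA genes, 3 of 10 HOXB genes, 5 of 9 HOXC genes and 0 of 9 HOXD genes. By their maxima over the lines the members were apart from the limit, since the lowest of the 18 maxima was 1.09 TPM (HOXA6) and the highest maximum among the other 21 was 0.474 TPM (HOXC5). The counts per line were less so, since in MCF10A HOXA6 (0.988 TPM), HOXB3 (0.954 TPM) and HOXA2 (0.921 TPM) lay just below 1 TPM.

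**Figure D1:**
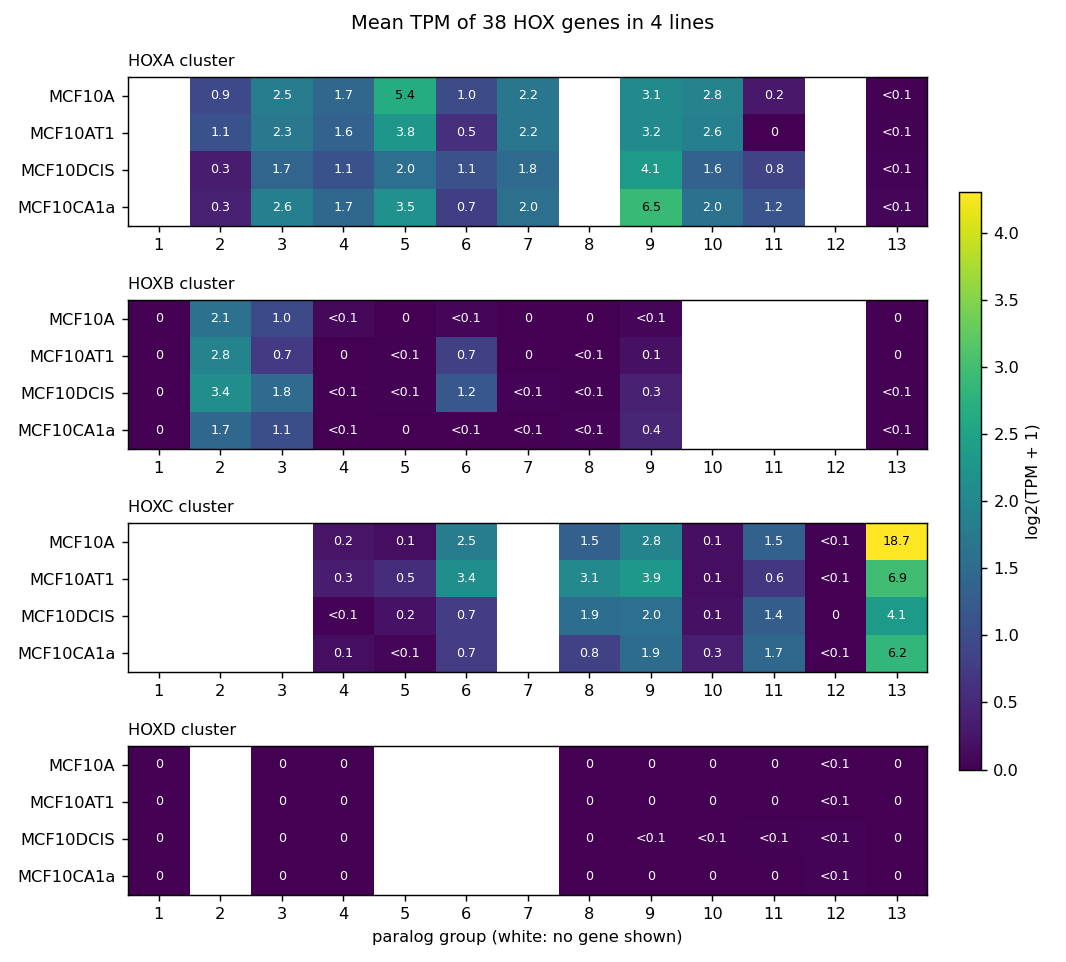
Mean TPM of 38 of the HOX genes, with 1 panel per cluster, the 4 lines as rows in order of progression and the 13 paralog groups as columns. Colour is log2(TPM + 1), the printed figures are TPM, and white marks groups with no gene shown. HOXA is filled from group 2 to group 11, HOXB at groups 2, 3 and 6, HOXC at groups 6, 8, 9, 11 and 13, and HOXD is at or close to 0 throughout.

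All 39 members together summed to 52.0 TPM in MCF10A, 41.5 TPM in MCF10AT1, 32.4 TPM in MCF10DCIS and 37.2 TPM in MCF10CA1a. Of the 33 members listed above 0 in some line, 7 were highest in MCF10A, 7 were highest in MCF10AT1, 9 were highest in MCF10DCIS and 10 were highest in MCF10CA1a. These 33 include 15 members below 1 TPM in all lines. Among those highest in MCF10DCIS are 4 HOXD genes at no more than 0.0327 TPM, so the tally rests in part on values near 0. Summed over its members, the HOXA cluster held 21.3 TPM in MCF10A, 18.4 TPM in MCF10AT1, 15.1 TPM in MCF10DCIS and 22.2 TPM in MCF10CA1a. The HOXC cluster held 27.5, 18.7, 10.4 and 11.7 TPM in the same lines, highest in the parental line. Without HOXC13 the HOXC sum was 8.80 TPM in MCF10A, 11.9 TPM in MCF10AT1, 6.37 TPM in MCF10DCIS and 5.48 TPM in MCF10CA1a. The lower sum in MCF10AT1 thus rested on that gene alone. HOXC13 itself was 18.7 TPM in MCF10A, 4.08 TPM in MCF10DCIS and 6.18 TPM in MCF10CA1a. It thus held most of the drop in both later lines. The rest of the cluster was also below MCF10A there in deposited TPM, and this was not computed on other scales. HOXC had the highest sum of the clusters in MCF10A and MCF10AT1, HOXA in the other lines. The HOXB cluster held 3.18, 4.35, 6.81 and 3.23 TPM, highest in MCF10DCIS. Against MCF10A the log2 difference of the HOXC sum was -0.53 for MCF10AT1, -1.32 for MCF10DCIS and -1.17 for MCF10CA1a. For MCF10DCIS it was -0.89 with median-of-ratios scaling, short of the rule of size. The HOXB sum differed by 0.36, 0.90 and 0.02, and the value for MCF10DCIS was 1.37 with TPM rescaled after leaving out structural, ribosomal and mitochondrial RNAs (called rescaled TPM). The HOXA sum differed by -0.20, -0.48 and 0.06.

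**Figure D2:**
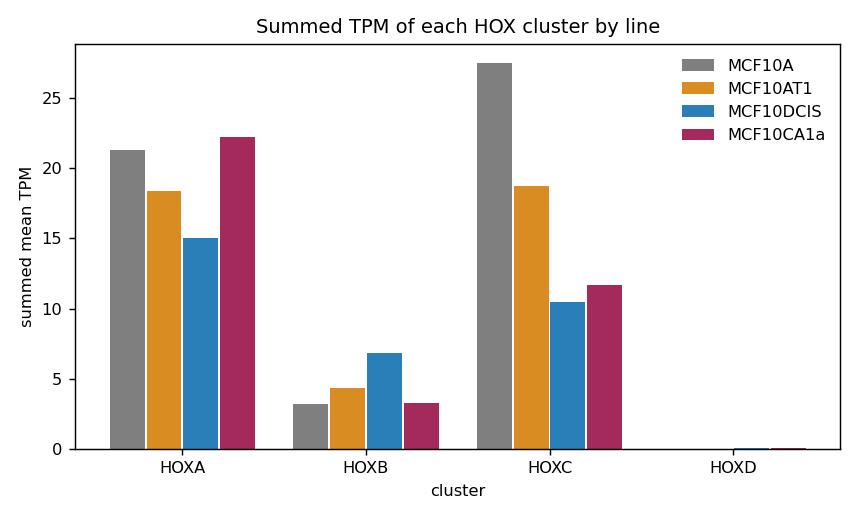
Summed mean TPM (vertical axis) of the members of each HOX cluster (horizontal axis) in MCF10A, MCF10AT1, MCF10DCIS and MCF10CA1a (bar colours). The HOXC sum is 27.5 TPM in MCF10A and 10.4 to 18.7 TPM in the derived lines, HOXB peaks at 6.81 TPM in MCF10DCIS, and HOXD stays at or below 0.0516 TPM. Each bar is 1 value with no error.

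HOXD was near silent in every line. Of its 9 members HOXD1, HOXD3, HOXD4, HOXD8 and HOXD13 were listed at 0 in all lines. HOXD9 and HOXD10, patterning genes of the limb, were listed above 0 only in MCF10DCIS, at 0.00311 and 0.00322 TPM. HOXD11 was 0.0126 TPM in that line and listed at 0 elsewhere, and HOXD12 ranged from 0.00213 TPM in MCF10AT1 to 0.0327 TPM in MCF10DCIS. None of the other 7 symbols inside the cluster, among them the antisense RNA HAGLR, exceeded 0.00484 TPM. The cluster lies on chromosome 2 from 176092891 to 176190907, plus strand (GENCODE release 29, GRCh38). MTX2, a nearby gene for a protein of the outer mitochondrial membrane, was 8.24 TPM in MCF10A, 7.68 TPM in MCF10AT1, 8.09 TPM in MCF10DCIS and 9.92 TPM in MCF10CA1a.

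Promoters of members at 1 TPM in at least 1 line and of members below it in all lines were compared by their sequence. The 250 bases before the RefSeq transcript start (GRCh38.p14) were matched for 20 of the 39 members, in 26 windows. There were 19 members without a window, among them HOXA5, HOXB2 to HOXB9, HOXB13, HOXC6, HOXC8 to HOXC13 and HOXD9. Shown are HOXA9, expressed in every line (chr7:27165538-27165787, minus strand), HOXA11, which differed between lines (chr7:27185233-27185482, minus strand), and HOXD10, at or near 0 (chr2:176116528-176116777, plus strand). Capitals mark CG dinucleotides, the sites of DNA methylation.
HOXA9: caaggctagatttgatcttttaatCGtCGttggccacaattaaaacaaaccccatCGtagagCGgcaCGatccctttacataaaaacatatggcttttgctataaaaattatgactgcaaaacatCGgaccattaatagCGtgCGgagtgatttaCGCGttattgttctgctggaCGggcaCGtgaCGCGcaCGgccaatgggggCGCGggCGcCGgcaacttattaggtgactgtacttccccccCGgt
HOXA11: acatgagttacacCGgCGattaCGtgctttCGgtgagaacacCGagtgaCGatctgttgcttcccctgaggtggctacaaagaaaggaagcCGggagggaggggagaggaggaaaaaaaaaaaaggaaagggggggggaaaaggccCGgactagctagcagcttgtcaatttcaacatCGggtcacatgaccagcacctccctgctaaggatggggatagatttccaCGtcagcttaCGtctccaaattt
HOXD10: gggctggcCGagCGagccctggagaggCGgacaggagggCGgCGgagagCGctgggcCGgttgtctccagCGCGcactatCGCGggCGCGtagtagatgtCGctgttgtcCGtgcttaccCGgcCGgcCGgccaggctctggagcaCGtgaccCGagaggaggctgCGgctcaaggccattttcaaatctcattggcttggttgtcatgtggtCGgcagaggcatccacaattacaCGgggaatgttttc
There were 20 CG dinucleotides in the HOXA9 window, 11 in the HOXA11 window and 23 in the HOXD10 window. The median was 22 over the 8 HOXD windows and 19 over the 16 HOXA windows, against 11 over 34941 windows of all genes. Windows of members at 1 TPM held 0 to 28 (median 19, 15 windows) and those of members below it 4 to 40 (median 21, 11 windows), so the counts overlapped. All 15 windows of members at 1 TPM were of HOXA genes, and 8 of the 11 others were of HOXD genes. Cluster and expression can therefore not be told apart in this comparison. No HOXB or HOXC member at 1 TPM had a window. Of the 15 windows 7 were of HOXA3 alone (0 to 26, median 11), and without them the expressed members' windows held 8 to 28 (median 22, 8 windows). CCAAT, on either strand, was present in 17 of the 26 HOX windows (65.4%) and in 11194 of all 34941 windows. TATAAA was present in 5 HOX windows (19.2%) and in 10.8% of all, HOXA9 above among them. The binding motif of HOX and PBX proteins TGATNNAT was present in 3 (11.5%) and in 6.49%. A direct repeat read by retinoic acid receptors, AGGTCA followed by any 5 bases and AGGTCA again, was present in 0 HOX windows and in 1 of all. All motifs were searched on both strands. A match describes the letters and is not a bound site.

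Of the HOXA genes 6 reached 1 TPM in every line and 4 more in some lines. The cluster lies on chromosome 7 from 27092993 to 27200106, minus strand. HOXA3, an anterior gene that patterns the neck region, was 2.49 TPM in MCF10A, 2.32 TPM in MCF10AT1, 1.65 TPM in MCF10DCIS and 2.62 TPM in MCF10CA1a, and HOXA4 was 1.68, 1.56, 1.11 and 1.73 TPM in these lines. Both were lowest in MCF10DCIS. HOXA7 varied least of the 18 genes, with 2.23 TPM in MCF10A, 2.22 TPM in MCF10AT1, 1.84 TPM in MCF10DCIS and 2.02 TPM in MCF10CA1a. HOXA10, known for its role in the uterus, was 2.80, 2.62, 1.57 and 2.04 TPM in the same lines. HOXA2, a hindbrain gene, was 0.921, 1.12, 0.252 and 0.317 TPM. HOXA6 was 0.988, 0.513, 1.09 and 0.742 TPM. None of these genes was past the rule of size against MCF10A in any derived line in deposited TPM with the pseudocount of 1. For MCF10AT1, MCF10DCIS and MCF10CA1a in turn, the differences of HOXA2 were 0.14, -0.62 and -0.54, and those of HOXA10 -0.07, -0.57 and -0.32. HOXA3 differed by -0.07, -0.39 and 0.05, HOXA4 by -0.07, -0.35 and 0.03, HOXA6 by -0.39, 0.07 and -0.19 and HOXA7 by -0.01, -0.18 and -0.10. These genes lie in order along the cluster, and the values of HOXA2, HOXA3 and HOXA4 in MCF10DCIS were all below those in MCF10A. The differences of HOXA3 and HOXA4 were close to the median of all genes for MCF10DCIS, -0.38. With median-of-ratios scaling the differences were -0.48 for HOXA2 and -0.09 each for HOXA3 and HOXA4. HOXA2 differed by -0.92 in MCF10DCIS and -0.86 in MCF10CA1a with rescaled TPM. With a pseudocount of 0.1 HOXA2 differed by -1.53 and -1.29 in these lines, past the rule of size. The last gene, HOXA13, a regulator of the limb tip and the urogenital tract, was at most 0.0509 TPM.

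HOXA5 was the HOXA gene with the highest level in MCF10A. This gene, which patterns the lung and the neck region in the mouse, was 5.35 TPM in MCF10A, 3.84 TPM in MCF10AT1, 1.97 TPM in MCF10DCIS and 3.53 TPM in MCF10CA1a. All 3 derived lines were below the parental one, and MCF10DCIS was lowest. Its difference in MCF10DCIS was -1.10, past the rule of size, but -0.98 with rescaled TPM, -0.76 with median-of-ratios scaling and -0.69 with quantile normalization. In MCF10AT1 and MCF10CA1a it differed by -0.39 and -0.49.

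HOXA9, best known for its part in blood stem cells and leukaemia, had another order of lines. It was 3.11 TPM in MCF10A, 3.16 TPM in MCF10AT1, 4.10 TPM in MCF10DCIS and 6.49 TPM in MCF10CA1a, so the metastatic line had the highest value. The difference in MCF10CA1a was 0.87, short of the rule of size, and 1.12 with rescaled TPM or 1.04 with a pseudocount of 0.1. HOXA9 was the member with the highest level in MCF10DCIS and MCF10CA1a and its share of the summed HOX TPM was 5.98% for MCF10A, 7.61% for MCF10AT1, 12.7% for MCF10DCIS and 17.5% for MCF10CA1a. HOXA10-AS, whose exons overlap those of HOXA9 by 422 bases on the other strand, was 1.58, 1.18, 1.29 and 2.63 TPM. The labels describe stranded libraries, but the strand setting of the counting is not given in the sources used here, so overlapping antisense pairs are uncertain.

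HOXA11, a gene of the uterus and the forelimb, was 0.230 TPM in MCF10A, listed at 0 in MCF10AT1, 0.842 TPM in MCF10DCIS and 1.19 TPM in MCF10CA1a. MCF10AT1 stood below the parental line and both later lines above it. Its antisense partner HOXA11-AS, which shares 717 exonic bases with it, was 0.268, 0.0144, 0.607 and 1.17 TPM, with the same order of lines. The difference of HOXA11 between MCF10CA1a and MCF10AT1 was 1.13, past the rule of size. Against MCF10A it was -0.30 for MCF10AT1, 0.58 for MCF10DCIS and 0.83 for MCF10CA1a. With rescaled TPM these were -0.74, 1.32 and 1.53, and with a pseudocount of 0.1 they were -1.72, 1.51 and 1.97, so the size depended on the scale and the sign did not.

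HOXC13 stood apart from all other members in MCF10A. The gene, a regulator of hair and nail keratins, was 18.7 TPM in MCF10A, 6.87 TPM in MCF10AT1, 4.08 TPM in MCF10DCIS and 6.18 TPM in MCF10CA1a. All 3 derived lines were far below the parental line. The differences from MCF10A were -1.32 in MCF10AT1, -1.96 in MCF10DCIS and -1.46 in MCF10CA1a, past the rule of size under all 4 other scalings and pseudocounts tried. HOXC13 made up 35.9% of the summed HOX TPM in MCF10A and 16.6%, 12.6% and 16.6% in MCF10AT1, MCF10DCIS and MCF10CA1a. It was the member with the highest level in MCF10A and MCF10AT1, and the next highest in MCF10A, HOXA5, had 5.35 TPM. HOXC13-AS, which overlaps it on the other strand by 172 exonic bases, was 1.95, 0.944, 0.885 and 0.680 TPM, also highest in MCF10A. The summed leukocyte markers (6.72 to 20.1 TPM) and endothelial markers (0.949 to 4.76 TPM) were highest in MCF10A as well, and their part in the result was not tested. HOXC13 lies on chromosome 12 from 53938765 to 53946544, plus strand.

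**Figure D3:**
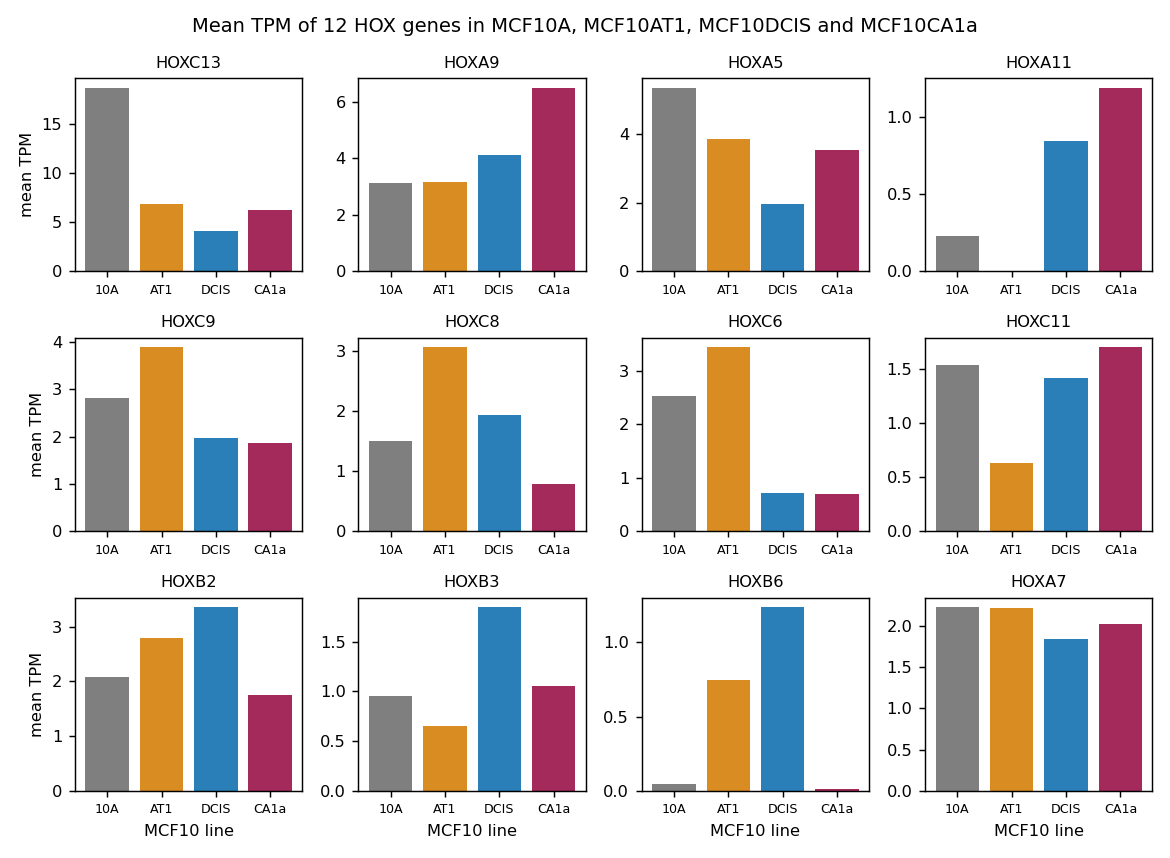
Mean TPM (vertical axes, each panel with its own scale from 0) of 12 HOX genes in the 4 lines in order of progression (horizontal axes and colours). HOXC13 is 18.7 TPM in MCF10A and 4.08 to 6.87 TPM in the derived lines, HOXA9 is highest in MCF10CA1a, HOXC6, HOXC8 and HOXC9 are highest in MCF10AT1, and HOXB2, HOXB3 and HOXB6 in MCF10DCIS. Each bar is 1 value with no error.

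The HOXC genes of groups 4 to 9 had another pattern than HOXC13, a grouping made after the values were seen. All 5 of them were highest in MCF10AT1, and 0 of the 4 genes of groups 10 to 13 were. HOXC6, expressed in the mammary gland, was 2.52 TPM in MCF10A, 3.44 TPM in MCF10AT1, 0.716 TPM in MCF10DCIS and 0.693 TPM in MCF10CA1a. HOXC8 was 1.49, 3.05, 1.94 and 0.774 TPM and HOXC9 2.82, 3.89, 1.96 and 1.86 TPM in the same lines. MCF10CA1a was lowest for all 3. Below 1 TPM, HOXC4 was 0.170, 0.262, 0.0253 and 0.115 TPM and HOXC5 0.117, 0.474, 0.159 and 0.0510 TPM. The lincRNA AC012531.1 inside the cluster was 1.06, 1.98, 0.382 and 0.237 TPM, with the order of lines of HOXC6. Exons of HOXC4, HOXC5 and HOXC6 overlap on the same strand (484 bases between HOXC4 and HOXC6), so their values share reads to an unknown extent. Summed fibroblast markers were also highest in MCF10AT1 (6.85 TPM). COL1A1 and POSTN, the only 2 of the 10 markers at 1 TPM in any line, were at 3.22 TPM each there. The other markers were at most 0.154 TPM in MCF10AT1 (PDGFRB), and COL1A1 was also 2.78 TPM in MCF10DCIS and 2.58 TPM in MCF10CA1a. The part of these markers in the result was not tested.

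HOXC6 was past the rule of size in MCF10DCIS (-1.04) and in MCF10CA1a (-1.06) against MCF10A, and by -1.37 and -1.39 against MCF10AT1. Against MCF10A it missed the rule with median-of-ratios scaling (-0.80 and -0.98) and with quantile normalization (-0.75 and -0.99). It was past the rule with rescaled TPM (-1.18 and -1.37) and with a pseudocount of 0.1 (-1.68 and -1.72). HOXC8 was lower in MCF10CA1a than in MCF10AT1 by the rule, with a difference of -1.19. Against MCF10A, HOXC8 differed by 0.70, 0.24 and -0.49 for the derived lines in order and HOXC9 by 0.36, -0.37 and -0.42, short of the rule. For MCF10AT1 the HOXC8 difference was 1.00 with rescaled TPM, just past the rule, and 0.98 with a pseudocount of 0.1. HOXC11 differed in its order of lines from the HOXC genes of groups 4 to 9, with 1.53 TPM in MCF10A, 0.629 TPM in MCF10AT1, 1.42 TPM in MCF10DCIS and 1.70 TPM in MCF10CA1a (differences of -0.64, -0.07 and 0.09). With a pseudocount of 0.1 the HOXC11 difference in MCF10AT1 was -1.16, past the rule. HOTAIR, the antisense RNA beside HOXC11 that was described as a partner of Polycomb complexes, was 1.18, 0.454, 0.740 and 0.635 TPM and thus lowest in MCF10AT1 too. HOXC10, at 0.126, 0.122, 0.150 and 0.291 TPM, was also lowest in MCF10AT1 and highest in MCF10CA1a, as HOXC11 was, and HOXC12 was at most at 0.0185 TPM.

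Of the HOXB genes, expression was limited to the anterior pair HOXB2 and HOXB3 and to HOXB6. HOXB2, a hindbrain gene, was 2.08 TPM in MCF10A, 2.78 TPM in MCF10AT1, 3.36 TPM in MCF10DCIS and 1.74 TPM in MCF10CA1a. HOXB3 was 0.954, 0.655, 1.85 and 1.05 TPM. HOXB6 was 0.0424 TPM in MCF10A, 0.749 TPM in MCF10AT1, 1.24 TPM in MCF10DCIS and 0.00982 TPM in MCF10CA1a. HOXB6 was thus near absent in the first and the last line and present in both lines between them, on an unknown number of reads. Its difference was 1.10 in MCF10DCIS against MCF10A and -1.15 in MCF10CA1a against MCF10DCIS, both past the rule. In MCF10AT1 it was 0.75 against MCF10A, and 1.59 with rescaled TPM, where that of MCF10DCIS was 2.33. HOXB2 differed from MCF10A by 0.30 for MCF10AT1, 0.50 for MCF10DCIS and -0.17 for MCF10CA1a, and HOXB3 by -0.24, 0.54 and 0.07. With rescaled TPM the differences in MCF10DCIS were 0.95 for HOXB2 and 1.07 for HOXB3, the latter past the rule. HOXB3 and HOXB6 share 433 exonic bases on the same strand, 16.6% of the exonic length of HOXB6, and HOXB3 was 1.05 TPM in MCF10CA1a where HOXB6 was 0.00982 TPM.

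The remaining 7 HOXB genes stayed below 1 TPM. HOXB9 was 0.0422 TPM in MCF10A, 0.141 TPM in MCF10AT1, 0.310 TPM in MCF10DCIS and 0.380 TPM in MCF10CA1a, the only one of the 7 above 0.1 TPM. HOXB1 was listed at 0 in all lines. HOXB4, HOXB5, HOXB7, HOXB8 and HOXB13, the last a factor of the prostate, reached at most 0.0641, 0.0232, 0.0260, 0.0335 and 0.00469 TPM. The antisense RNA HOXB-AS1 inside the cluster was 0.344 to 0.819 TPM. The cluster lies on chromosome 17 from 48528526 to 48729178, minus strand.

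The counts of members past the rule of size are given for each comparison beside the shares of all genes. Of the 39 members 18 passed the filter of 1 TPM and 21 did not. In MCF10AT1 against MCF10A 0 were higher and 1 lower (HOXC13), beside 3.39% of all genes higher and 5.87% lower. In MCF10DCIS against MCF10A 1 was higher (HOXB6; 3.56% of all genes) and 3 lower (HOXA5, HOXC6 and HOXC13; 14.8%). In MCF10CA1a against MCF10A 0 were higher (5.97% of all genes) and 2 lower (HOXC6 and HOXC13; 7.14%). These 3 comparisons share the MCF10A values. In MCF10DCIS against MCF10AT1 0 were higher (3.23%) and 1 lower (HOXC6; 7.51%). In MCF10CA1a against MCF10AT1 1 was higher (HOXA11; 6%) and 2 lower (HOXC6 and HOXC8; 3.97%). In MCF10CA1a against MCF10DCIS 0 were higher (6.03%) and 1 lower (HOXB6; 1.35%).

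**Figure D4:**
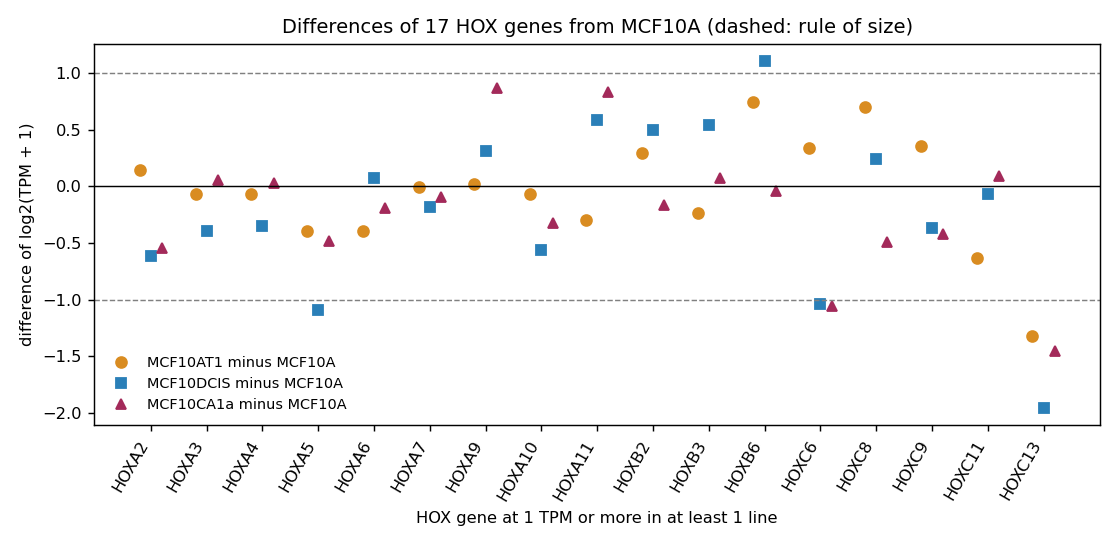
Difference of log2(TPM + 1) from MCF10A (vertical axis) of 17 of the 18 HOX genes at 1 TPM or more in at least 1 line (horizontal axis) in MCF10AT1 (circles), MCF10DCIS (squares) and MCF10CA1a (triangles). Dashed lines mark the rule of size at -1 and 1. HOXC13 lies below -1 in all 3 derived lines, HOXC6 in MCF10DCIS and MCF10CA1a, HOXA5 in MCF10DCIS, and HOXB6 in MCF10DCIS lies above 1.

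Against MCF10A the 18 genes had a median difference of -0.07 for MCF10AT1, -0.27 for MCF10DCIS and -0.13 for MCF10CA1a, beside -0.07, -0.38 and -0.07 for all 13108 genes. With rescaled TPM the medians were 0.03, -0.03 and -0.11 for the 18 genes and 0.04, -0.09 and 0.05 for all genes, so the scaling moved the median of all genes most for MCF10DCIS. The RNAs left out in the rescaling made up 65.6% of MCF10A TPM, 68.5% for MCF10AT1, 73.4% for MCF10DCIS and 68.9% for MCF10CA1a. On that scale, against MCF10A, 2 members were higher (5.72% of all genes) and 1 lower (6.57%) in MCF10AT1. In MCF10DCIS 3 were higher (7.71%) and 2 lower (10.2%), and in MCF10CA1a 2 were higher (9.33%) and 2 lower (7.69%).

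Arranged by paralog group, the anterior groups 1 to 3 summed to 7.97 TPM in MCF10A, 7.89 TPM in MCF10AT1, 7.71 TPM in MCF10DCIS and 7.22 TPM in MCF10CA1a. The central groups 4 to 8 summed to 14.7, 16.1, 10.2 and 9.72 TPM and the posterior groups 9 to 13 to 29.4, 17.5, 14.5 and 20.2 TPM. The anterior sum varied little over the lines, although in MCF10DCIS its members HOXB2 and HOXB3 were above their MCF10A values and HOXA2 and HOXA3 below theirs. Without HOXC13 the posterior sum was 10.7, 10.6, 10.4 and 14.04 TPM. Group 13, nearly all of it HOXC13, held 18.7, 6.88, 4.11 and 6.24 TPM. Group 9 held 5.98, 7.19, 6.37 and 8.73 TPM. Groups 12 and 13 apart from HOXC13 were close to 0, with group 12 at 0.0103 to 0.0327 TPM.

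Chromosome 7, which carries HOXA, was lower as a whole in the derived lines. Its 617 expressed genes had a median difference from MCF10A of -0.54 for MCF10AT1, -0.88 for MCF10DCIS and -0.60 for MCF10CA1a, and that of the 41 genes within 5 Mb of HOXA was -0.46, -0.72 and -0.43. The HOXA sum differed by -0.20, -0.48 and 0.06. SKAP2, a gene next to HOXA that encodes an adaptor protein, was 13.6 TPM in MCF10A, 6.37 TPM in MCF10AT1, 2.71 TPM in MCF10DCIS and 6.22 TPM in MCF10CA1a. Genes within 5 Mb of HOXC had medians of -0.04, -0.37 and -0.07 and those near HOXB -0.01, -0.03 and 0.13. The part of chromosome-wide levels in the HOX differences was not tested.

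Of 43 other symbols inside the clusters 6 reached 1 TPM. HOTAIRM1, a non-coding RNA of the HOXA cluster, was 10.2 TPM in MCF10A, 8.15 TPM in MCF10AT1, 4.94 TPM in MCF10DCIS and 11.8 TPM in MCF10CA1a. It exceeded every HOXA coding gene in each line and was lowest in MCF10DCIS. HOXA-AS2 was 1.62, 1.80, 0.402 and 1.11 TPM. The 8 microRNA symbols, which include MIR10A, MIR10B, MIR196B and MIR615, were listed at 0 in all lines.

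Most partners and all listed Polycomb and trithorax regulators of HOX genes were expressed. Over all genes, the shares past the rule of size against MCF10A were 3.39% higher and 5.87% lower in MCF10AT1, 3.56% and 14.8% in MCF10DCIS, and 5.97% and 7.14% in MCF10CA1a, and each list's counts stand beside these. Of 11 TALE genes 9 reached 1 TPM. PBX2 was 9.47 to 12.3 TPM over the lines and PBX3 4.79 to 7.29 TPM. MEIS2 was 5.11 TPM in MCF10A, 3.57 TPM in MCF10AT1, 1.90 TPM in MCF10DCIS and 2.39 TPM in MCF10CA1a. By the rule of size 1 TALE gene was higher and 0 lower in MCF10AT1, 0 and 1 in MCF10DCIS, and 0 and 0 in MCF10CA1a against MCF10A. The one higher was MEIS3, at 0.895, 3.91, 1.25 and 2.50 TPM, and the one lower MEIS2. All 32 Polycomb genes and all 20 trithorax and demethylase genes listed reached 1 TPM. Against MCF10A, 1 Polycomb gene was higher and 0 lower in MCF10AT1, 0 and 1 in MCF10DCIS, and 1 and 0 in MCF10CA1a. These were CBX6, a reader of H3K27 methylation, at 8.17, 21.7, 17.1 and 25.0 TPM, and EZH2, the H3K27 methyltransferase, at 13.8, 7.60, 4.22 and 7.09 TPM. Of the trithorax list 0 genes passed in MCF10AT1, 2 were lower in MCF10DCIS (the methyltransferase KMT2C and the demethylase KDM1A) and 1 was higher in MCF10CA1a (MLLT3).

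The retinoic acid pathway controls HOX genes in the embryo. Of its 20 genes listed 12 reached 1 TPM, and 2 were higher and 5 lower in MCF10AT1, 2 and 4 in MCF10DCIS, and 4 and 2 in MCF10CA1a against MCF10A, beside the same shares of all genes. ALDH1A3, which makes retinoic acid, was 69.1 TPM in MCF10A, 24.7 TPM in MCF10AT1, 188 TPM in MCF10DCIS and 466 TPM in MCF10CA1a. CRABP2, which carries retinoic acid to its receptors, was 20.5, 3.77, 4.23 and 7.07 TPM, and the receptor RXRA 9.21, 31.0, 13.2 and 31.7 TPM. Among 53 homeobox genes outside the clusters 18 reached 1 TPM, with 3 higher and 1 lower in MCF10AT1, 1 and 2 in MCF10DCIS, and 2 and 3 in MCF10CA1a. IRX5, a homeobox factor of heart and limb development, was 19.4, 5.34, 4.17 and 2.82 TPM, like HOXC13 highest in MCF10A, and IRX3 was 12.7, 11.0, 6.51 and 3.33 TPM. ZEB2 had another order, with 1.34, 7.70, 0.111 and 0.0264 TPM, and was highest in MCF10AT1.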

How the data were processed

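Per the labels' protocols, stranded RNA-seq libraries were prepared from total RNA of 4 MCF10 lines, 3 per line. TPM values were deposited as 1 table that has a column of means for each line, per the file headers. Each column summed to 1000000. STAR and edgeR are named with hg38, per the submitters' processing notes (versions, quantification program, strand setting and annotation: not given in the sources used here). With means alone, library depth and spread are unknown and no test was run. Members were the symbols made of HOX, a cluster letter and a number. Log2 differences used a pseudocount of 1, genes at 1 TPM in at least 1 line and the rule of size of 1 log2 unit. Positions came from GENCODE release 29 (GRCh38), which held 54529 of the 59427 symbols, and promoters from RefSeq (GRCh38.p14). Every member entered the counts and sums, 1 of them is not reported singly here, and other genes were named if past the rule of size against MCF10A and at 5 TPM or more, at most 4 per list, and cell type markers and HRAS as checks of the labels. Members, lists and rules were chosen with earlier results of these data known. MEIS3, PBX2, PBX3, MLLT3, MTX2 and the non-coding RNAs were named after their values were seen. The calculation was tested on simulated data. Tools were Python 3.11.15, pandas 2.3.3, numpy 2.4.6 and matplotlib 3.10.9. Alternatives were rescaled TPM, median-of-ratios scaling, quantile normalization, a pseudocount of 0.1, other filters and other TPM levels.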

Additional observations from a re-analysis of the deposited data

How the results depend on the processing

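The count of members at 1 TPM stayed within 1.5 times the stated one with rescaled TPM, with median-of-ratios scaling and at a level of 0.5 TPM. At 5 TPM, MCF10A had 2 members, MCF10AT1 had 1, MCF10DCIS had 0 and MCF10CA1a had 2. The HOXB sum in MCF10DCIS differed from MCF10A by 1.37 with rescaled TPM, 1.28 with median-of-ratios scaling and 1.07 with a pseudocount of 0.1, against 0.90. The HOXC sum there differed by -0.89 with median-of-ratios scaling. The counts past the rule of size were small and moved with the processing. For these settings the share of all genes is given above only for rescaled TPM against MCF10A. The other counts here stand without such a share, so they cannot be compared with all genes. With rescaled TPM, 2 members were higher in MCF10AT1 than in MCF10A, 3 higher in MCF10DCIS, 2 higher in MCF10CA1a, 3 higher and 2 lower in MCF10DCIS than in MCF10AT1, 2 higher and 4 lower in MCF10CA1a than in MCF10AT1, and 3 lower in MCF10CA1a than in MCF10DCIS. With a pseudocount of 0.1 the counts against MCF10A were 1 higher and 3 lower in MCF10AT1, 2 higher and 5 lower in MCF10DCIS and 2 higher in MCF10CA1a, those against MCF10AT1 were 3 higher and 2 lower in MCF10DCIS and 3 higher and 5 lower in MCF10CA1a, and those in MCF10CA1a against MCF10DCIS were 1 higher and 2 lower. With a filter of 5 TPM, which HOXB6, HOXC6, HOXC8 and HOXA11 do not pass, 0 members were higher in MCF10DCIS and 1 lower in MCF10CA1a than in MCF10A, and 0 passed in MCF10DCIS or MCF10CA1a against MCF10AT1 or between those lines. With median-of-ratios scaling 1 was lower in MCF10DCIS and 1 in MCF10CA1a than in MCF10A, and 2 higher in MCF10DCIS than in MCF10AT1. With quantile normalization these were 1, 1 and 2, and 3 were lower in MCF10CA1a than in MCF10DCIS. The cause was not tested. Without a filter on low values the counts were the same. No difference of a member past the rule changed its sign under any of these settings in the comparisons with MCF10A.

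No paired analysis was possible because the table holds 1 mean per line. For the same reason leaving out each library could not be run. The lowest levels, such as those of HOXD, rest on an unknown number of reads, and a gene listed at 0 is not shown to be untranscribed.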
